A study of Mus musculus with 12 samples.

Results

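The nuclear pore and transport receptor genes were taken from the table of 17419 genes by symbol: the numbered Nup genes, the karyopherins Kpna and Kpnb, the importins Ipo, the exportins Xpo, the transportins Tnpo, and Ranbp2, Tpr, Pom121, Ndc1, Nxf1, Nxt1, Ran and Rangap1. The rule found 52 genes, all protein coding. They were followed in the NIH-3T3 line of immortalised mouse fibroblasts, whose genotype is given as WT. Cells were either left without 4-thiouridine (no4sU) or exposed to 800 µM 4-thiouridine (4sU) for 15, 30, 60, 90 or 120 min, with replicates A and B in each of the 6 groups. 4sU is taken up into RNA in place of uridine, and iodoacetamide then alters it so that sequencing reads a C where the gene has a T. From such reads the authors estimated for each gene the new-to-total ratio (NTR), the share of its RNA made during labelling, given here in percent. The comparisons asked how the read counts and the NTR of these genes depended on how long cells were labelled, in a series whose design is a set of increasing labelling durations.

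Nuclear pores are large protein channels through the nuclear envelope. A Y-shaped outer ring scaffold and an inner ring hold the pore in place, a membrane ring anchors it, and subunits with phenylalanine-glycine (FG) repeats fill the central channel and form the barrier that transport receptors cross. Importins carry proteins with a nuclear localisation signal inward, exportins carry cargo outward, and the small GTPase Ran, bound to GTP in the nucleus and to GDP in the cytoplasm, gives the traffic its direction. Most mRNA leaves through a separate receptor made of Nxf1 and Nxt1.

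Because 4sU enters RNA at uridines, the T content of a transcript sets how many places can carry the label. The first 60 coding bases (5′ to 3′, GENCODE M21 transcripts on GRCm38, coding strand) are shown for the pair of pore subunits with the highest NTR at 120 min and for the pore subunit and the importin with the lowest, with every T in capitals.
Nup62: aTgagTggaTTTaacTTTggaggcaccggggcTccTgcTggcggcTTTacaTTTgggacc
Nup153: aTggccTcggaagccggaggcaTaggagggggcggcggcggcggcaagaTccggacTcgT
Ndc1: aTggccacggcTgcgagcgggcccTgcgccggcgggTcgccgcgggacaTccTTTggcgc
Ipo11: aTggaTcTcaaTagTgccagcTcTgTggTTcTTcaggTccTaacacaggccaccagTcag
The Nup62 stretch holds 17 T and that of Nup153 holds 6, while Ndc1 has 8 and Ipo11 has 15. Over the whole transcript, T made up 21.1% of the bases of Nup62 and 26.8% of Nup153, against 29.7% for Ndc1 and 28.5% for Ipo11. These genes were picked for their NTR, and the part of T content in the NTR was not tested. In GRCm38, Nup62 lies at chr7:44816088-44830812 on the plus strand, Nup153 at chr13:46679905-46727940 on the minus strand, Ndc1 at chr4:107367784-107416346 on the plus strand and Ipo11 at chr13:106794439-106936958 on the minus strand.

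The 12 libraries held 9917026 to 13739380 reads. All 8 fibroblast markers looked for were present, from 78.2 to 8322 CPM (counts scaled to a common library size, adjusted by TMM factors), while the epithelial, leukocyte and endothelial markers Cdh1, Krt8, Ptprc and Pecam1 did not exceed 0.388 CPM, Cdh5 was at 0.661 to 1.55 CPM and Cd68 at 4.19 to 6.76 CPM. The 2 no4sU libraries stood further apart than those of any labelled group. Over the 48 members whose counts averaged 100 or more, the SD of the log2 difference between replicates was 0.178 without 4sU and 0.053 to 0.076 in the labelled groups. Ranbp2 had the largest gap, −0.41 on the log2 scale for A minus B, 32 of the 48 genes were lower in A, and the gap had a Spearman rho of −0.65 with the length of the gene over these 48 genes. The main comparisons therefore set each longer labelling against 15 min, with the no4sU libraries outside the fit, and the comparison with no4sU is given with and without each of them. Nothing in the labels says that replicates were separate cultures, so p-values measure only the spread between these libraries.

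Of the 52 genes, 49 had enough reads to be tested, and 48 reached a mean count of 100, the minimum used for the NTR. Nup210, a membrane ring subunit, the importin alpha Kpna7 and the paralog Nup62cl had mean counts below 1 and were not tested, and the paralog Nup210l had a mean count of 19.2. Some of these transcripts share sequence with transcripts of other genes, so that the authors' counting could divide their reads. Whether the other gene is a copy elsewhere or overlaps at the same place was not looked at. In GENCODE M21, 92.4% of the 50-base words of Kpna2, 83.0% of those of Nup35 and 59.5% of those of Ipo4 also occur in another gene, and between 14.1% and 20.3% of those of Nup54, Ran, Xpot and Tnpo1. The counts of these 7 genes are therefore uncertain. Divided counting may reach further, since 45 of the 52 genes had counts that were not whole and 13 shared over 1% of their words.

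Per kilobase of gene length, the most abundant of these transcripts at 15 min was Ran with 379 CPM per kb, followed by Kpnb1 (importin beta, which carries cargo bound by importin alpha) with 254, Kpna2 with 174 and Ipo5 with 131. These 4 are all soluble transport genes. Among role groups, the median level per length was 22.0 CPM per kb in the Y complex, 27.3 among the exportins, 29.0 in the inner ring, 31.3 in the nuclear basket, 31.8 in the central channel, 35.3 among the importin alphas, 36.8 on the cytoplasmic face, 37.9 in the membrane ring, 42.6 in the importin beta family, 47.5 for the mRNA export receptor and 230.6 for the Ran cycle, and the lowest single level was that of the exportin Xpo7 with 8.76 CPM per kb.

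The NTR differed widely among these genes, also inside single parts of the pore. At 120 min the 3 highest NTR values belonged to the central channel and nuclear basket. The lowest medians of a role group were those of the importin beta family and the inner ring. Inside a part, the NTR ran from 25.8% to 84.5% in the nuclear basket and from 16.1% to 70.3% in the membrane ring. No test was made between parts. Over the 48 genes, the shortest labelling gave a median NTR of 0.733% ± 0.336 (SD, n = 2). The median was then 4.24% ± 0.202 after 30 min, 14.7% ± 0.856 after 60, 22.3% ± 1.88 after 90 and 32.6% ± 0.615 after 120. Over all 9065 genes with the same mean count, the medians were 1.01%, 5.21%, 15.5%, 24.4% and 35.4%. At 120 min, 21 of the 48 genes lay above and 27 below the median of all genes, so as a set they sat near the middle of the transcriptome, with single members close to either end.

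**Figure D1:**
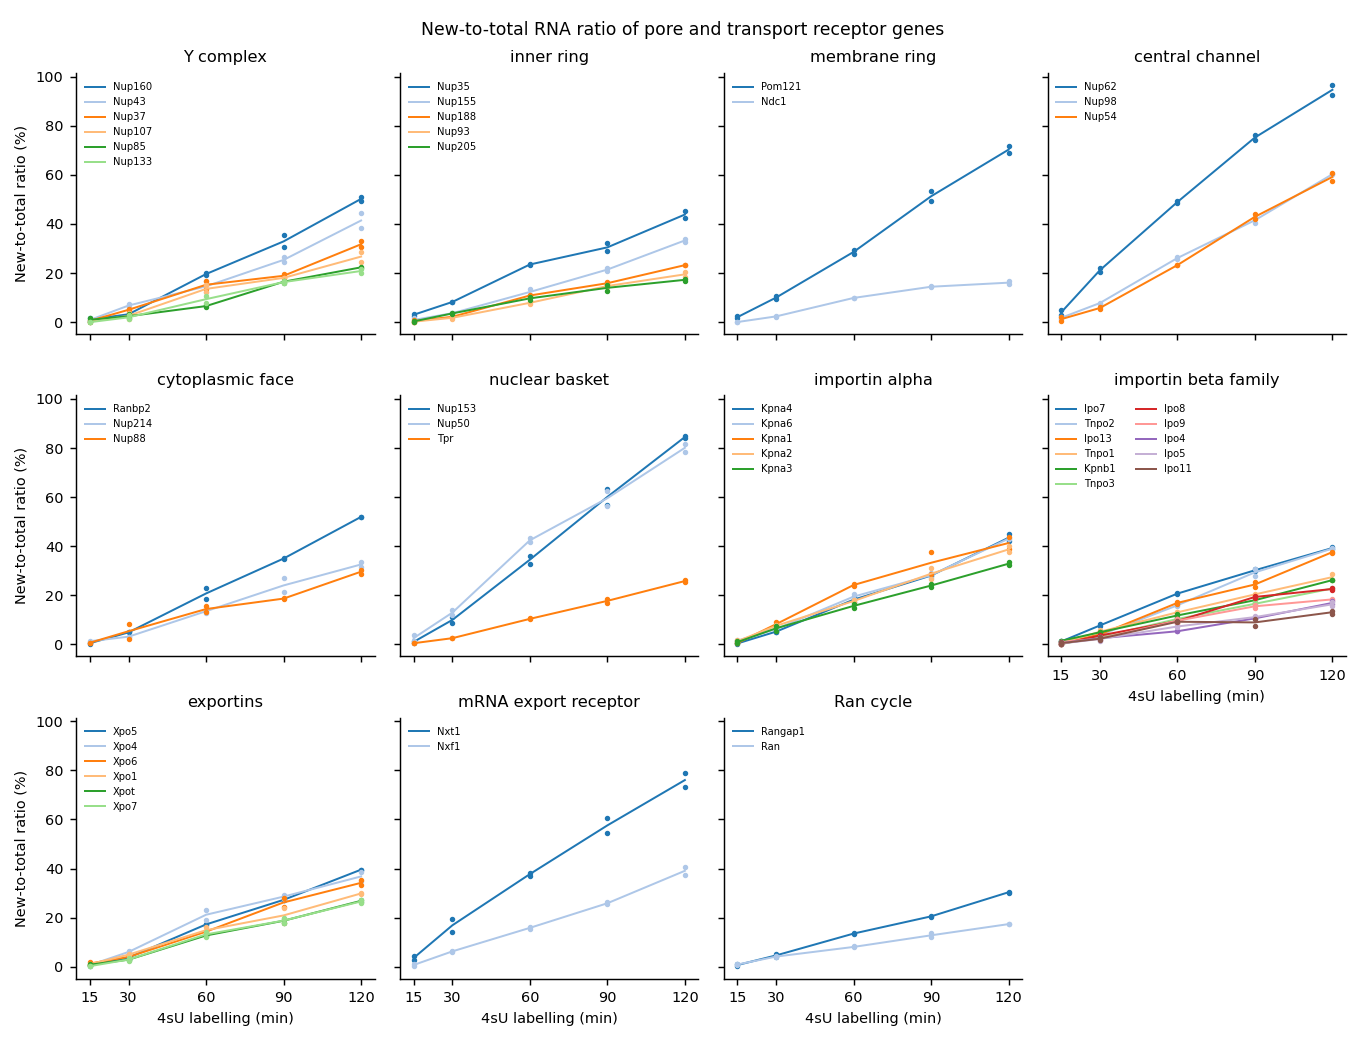
New-to-total ratio in percent (vertical axis) against minutes of 4sU labelling (horizontal axis) for the 48 genes, in a panel for each role; lines join the means of 2 libraries and points are single libraries. The means of Nup62, Nup153 and Nup50 at 120 min are 94.7%, 84.5% and 80.1%, while those of the importin beta family lie between 13.1% and 39.3%.

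Nup62, the FG subunit at the core of the central channel, had the highest NTR. In replicates A and B, 15 min of labelling gave 5.11% and 2.81%, 30 min 20.4% and 21.9%, 60 min 49.5% and 48.4%, 90 min 76.1% and 74.4%, and 120 min 92.7% and 96.6%. Every duration lay apart from the one before it, and after 120 min nearly all Nup62 RNA was new. The other 2 central channel genes, Nup98 and Nup54, had an NTR of 60.3% and 59.2% at 120 min.

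In the nuclear basket, the fibrous structure on the nucleoplasmic side, the 3 genes were split. Nup153, which anchors the basket and binds receptors, had an NTR of 33.0% and 36.1% at 60 min, reaching 84.7% and 84.3% after 120. Nup50, which helps importin alpha release its cargo, had 43.3% and 41.6% at 60 min, then 78.4% and 81.8% after 120. Tpr, the long coiled-coil protein that forms the basket's filaments, had 10.6% and 10.2% at 60 min, then 26.2% and 25.4% after 120, below both of the others in every library from 15 min on.

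The scaffold had lower medians than the central channel and basket. The 5 inner ring genes had a median NTR of 23.2% at 120 min, between 17.3% and 43.8%, and the 6 Y complex genes 29.2%, between 20.9% and 50.2%, with Nup160 at the top. The membrane ring held both ends: Pom121 had 71.7% and 68.9%, and Ndc1, a transmembrane subunit that anchors the pore in the envelope, had 16.9% and 15.4%. On the cytoplasmic face, Ranbp2, the large filament protein that binds Ran and carries SUMO ligase activity, had 51.9% and 52.0%, and Nup214, which together with Nup88 docks exported cargo, had 31.7% and 33.5%.

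Among the receptors, the 11 importin beta family genes had a median of 22.8% at 120 min, the 6 exportins 32.0%, and the 5 measured importin alphas 41.3%. The 4 genes with the lowest NTR were Ipo11 (12.5% and 13.7% in A and B), Ndc1, Ipo5 (15.5% and 17.2%) and Ipo4 (16.3% and 17.5%), of which the last 3 overlapped in their libraries while Ipo11 lay below them in both. Xpo1, the exportin for leucine-rich export signals, had 29.6% and 30.1%. Kpnb1 had 26.3% and 26.1%, and its partner Kpna2 had a mean of 38.7% ± 1.78 (SD, n = 2). Ran had 17.5% and 17.2%, and Rangap1, the protein that makes Ran hydrolyse its GTP, had 30.5% and 30.2%. The mRNA export receptor was uneven: Nxt1, the small cofactor, had 73.0% and 79.0%, and Nxf1, its large partner, 40.7% and 37.5%.

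An apparent half-life was computed from each NTR by assuming constant synthesis and first-order decay. The formula also takes the level of each gene as steady. The CPM of Nup62, Nup153 and Nup50 were lower at 120 than at 15 min, as given below, so for these genes that assumption was not met. It is also in doubt for the other genes called at 120 against 15 min, 22 of 49 in all, among them Ipo4, which was higher. From the 120 min libraries the median half-life was 211 ± 4.92 min (SD, n = 2) over the 48 genes and 198 min over all genes. The shortest was that of Nup62 with 28.2 ± 5.02 min, followed by Nup153 with 44.6 min, Nup50 with 51.5 min and Nxt1 with 58.4 min. The longest were 592 min for Ipo11, 475 min for Ndc1, 467 min for Ipo5 and 449 min for Ipo4, past the length of the experiment.

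The half-life moved with the duration it was read from. The 48-gene median was 481 min from the 30 min libraries, 262 min from those of 60 min and 249 min from those of 90 min. From the 15 min libraries it was 653 min, over only 23 genes with a value in A and 10 in B. Over all genes the medians fell as well, with 368, 247 and 224 min from 30, 60 and 90 min. For 37 of the 48 genes (77.1%), both 120 min values were below both 60 min values, for 2 they were above, and for 9 they overlapped, while the shares over all genes with a value were 65.0% below and 5.27% above. Nup62 went from 61.9 min at 60 min to 28.2 min at 120 min and Nup153 from 98.5 to 44.6 min. Ndc1, in contrast, went from 400.0 to 475 min and Ipo11 from 429 to 592 min. These genes were picked for their NTR at 120 min, which by itself favours a wider gap there than at 60 min. The spread over the 48 genes was not compared between durations. The order of genes was steadier than the values: over the 48 genes the NTR at 60 and 120 min had a Spearman rho of 0.95, and replicates A and B at 120 min one of 0.98, as descriptions across genes that share libraries.

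Read counts, which do not use the conversions, moved downward for many of these genes as labelling grew longer. At 120 against 15 min, 22 of 49 genes (44.9%) passed an adjusted p of 0.05 in edgeR's quasi-likelihood test over all genes, beside 32.1% of all 11526 genes tested. Of the 49, 19 (38.8%) were lower, beside 16.9% of all genes, and 3 (6.12%) were higher, beside 15.2%. The median log2 fold change was −0.08 over the 49 genes and 0.01 over all genes, and 33 of the 49 values were below 0. Scaling by library size alone, which moved the median of all genes to −0.05, called 26 of the 49 genes lower and 2 higher, beside 2641 lower and 990 higher of all genes in place of 1948 and 1752. Among pore subunits, 11 of 22 tested were lower and none was higher, with a median of −0.15, and among receptors and Ran cycle genes 8 of 26 were lower and 3 higher, with a median of −0.05. The difference between these classes was not tested. CPM are shares of a library, so a fall of a transcript and a rise of the rest of the library cannot be told apart. Counts were per library and not per cell, so fewer cells with a transcript and less of it per cell cannot be told apart either.

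**Figure D2:**
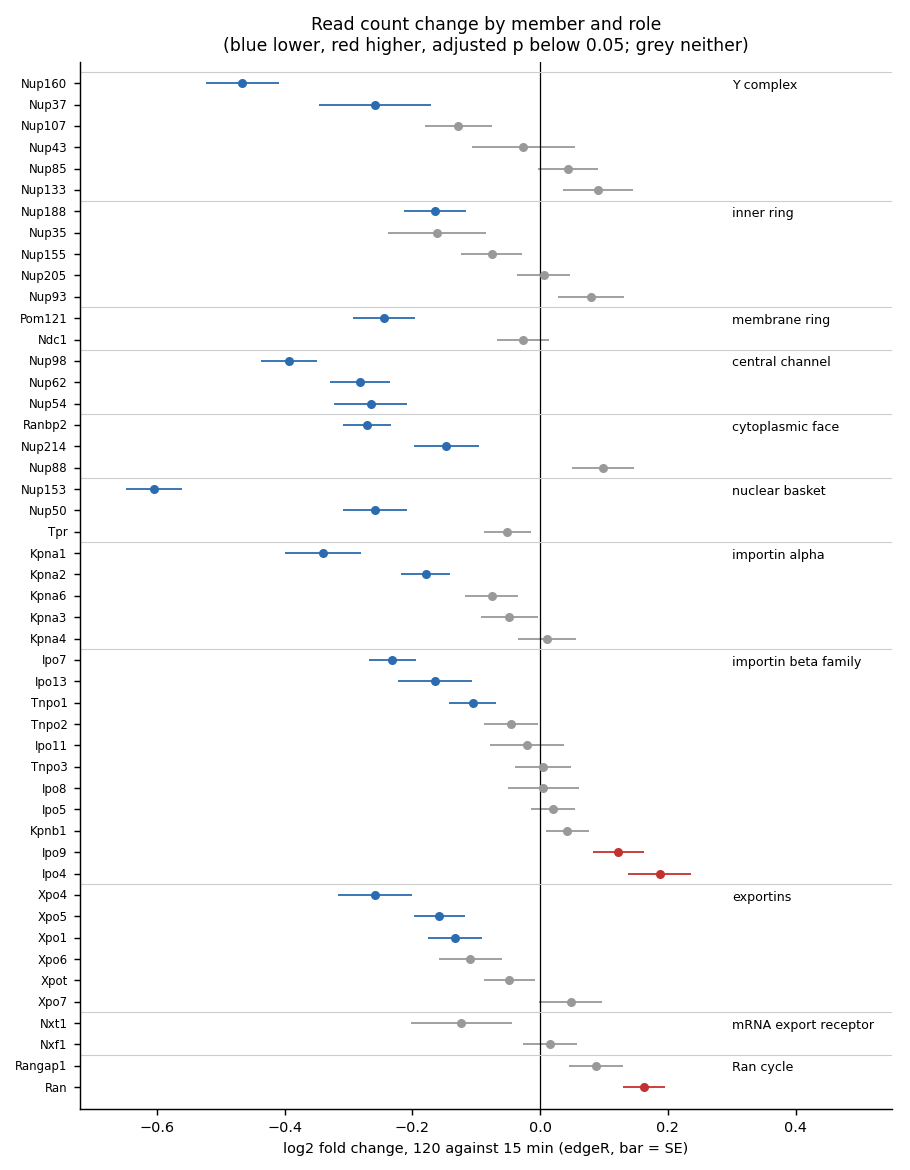
log2 fold change in read count at 120 against 15 min (horizontal axis, edgeR, bars are SE) for the 48 tested genes that have a role, grouped by role; blue genes were lower and red genes higher at an adjusted p below 0.05. All 3 central channel genes were lower, and the 3 genes that were higher are Ran, Ipo4 and Ipo9.

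In the central channel and basket, 5 of the 6 genes were lower. All 5 had a high NTR, and among all genes of similar NTR 39.7% to 59.4% were called lower, as given below. Nup153 had 193 and 189 CPM in A and B at 15 min, then 181 and 178 after 30 min, 168.2 and 169.8 after 60, 153 and 148 after 90, and 124 and 127 after 120. Each group lay below the one before it without overlap. Its log2 fold change at 120 against 15 min was −0.60 ± 0.0438 (SE; edgeR adjusted p = 8.36e-13), the lowest among the 49 genes. Nup50 fell from 138 and 132 CPM at 15 min to 117 and 109 at 120 min, by 0.26 on the log2 scale (edgeR adjusted p = 0.000113). Tpr had 388 and 400 CPM at 15 min against 391 and 370 after 120, which overlap, and did not pass (−0.05, edgeR adjusted p = 0.301).

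Nup98, an FG subunit that also occurs inside the nucleus, had 177 and 180 CPM at 15 min against 137 and 135 after 120. Its change was −0.39 ± 0.0438 (edgeR adjusted p = 1.49e-08), with a wide gap between the groups. Nup62 had 175 and 187 CPM at 15 min against 150.3 and 147 after 120, a change of −0.28 ± 0.0474 (edgeR adjusted p = 1.58e-05). Nup54, the third central channel gene, had 73.6 and 75.8 CPM at 15 min against 62.9 and 61.5 after 120 and was also lower. Its partner in the channel complex, Nup58, is listed under the older symbol Nupl1, which the rule does not take, and went from 65.4 and 66.8 to 55.0 and 51.9 CPM (−0.31, edgeR adjusted p = 0.000244).

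In the Y complex, Nup160 and Nup37 were lower and the other 4 genes passed in neither direction. The Nup37 call was lost when any of the 4 libraries was left out, with DESeq2, and in the edgeR fit of all 12 libraries (adjusted p up to 0.116 over the alternatives run). Nup160, a scaffold protein of the Y's arm, had 90.9 and 88.0 CPM at 15 min, then 82.6 and 83.4 after 60 min, 73.5 and 79.8 after 90, and 63.0 and 66.3 after 120. The 120 min libraries lay below all others, and the change was −0.47 ± 0.0569 (edgeR adjusted p = 8.36e-08). In the inner ring Nup188 was lower and the other 4 genes were not called. The Nup188 call was lost without 15 min replicate A, without 120 min replicate B and in the edgeR fit of all 12 libraries. In the membrane ring Pom121 was lower while Ndc1, with 208 and 214 CPM at 15 min against 206 and 208 after 120, was not called (edgeR adjusted p = 0.651).

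On the cytoplasmic face, Ranbp2 had 354 and 379 CPM at 15 min against 305 and 303 after 120, without overlap (−0.27 ± 0.0375, edgeR adjusted p = 7.54e-07). Nup214 had 131 and 129 CPM at 15 min against 119 and 116 after 120 (−0.15 ± 0.0509, edgeR adjusted p = 0.0246). The Nup214 call is a narrow one and was lost when any of the 4 libraries concerned was left out. It was also lost with DESeq2 (adjusted p = 0.0858) and in the edgeR fit of all 12 libraries (adjusted p = 0.106).

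**Figure D3:**
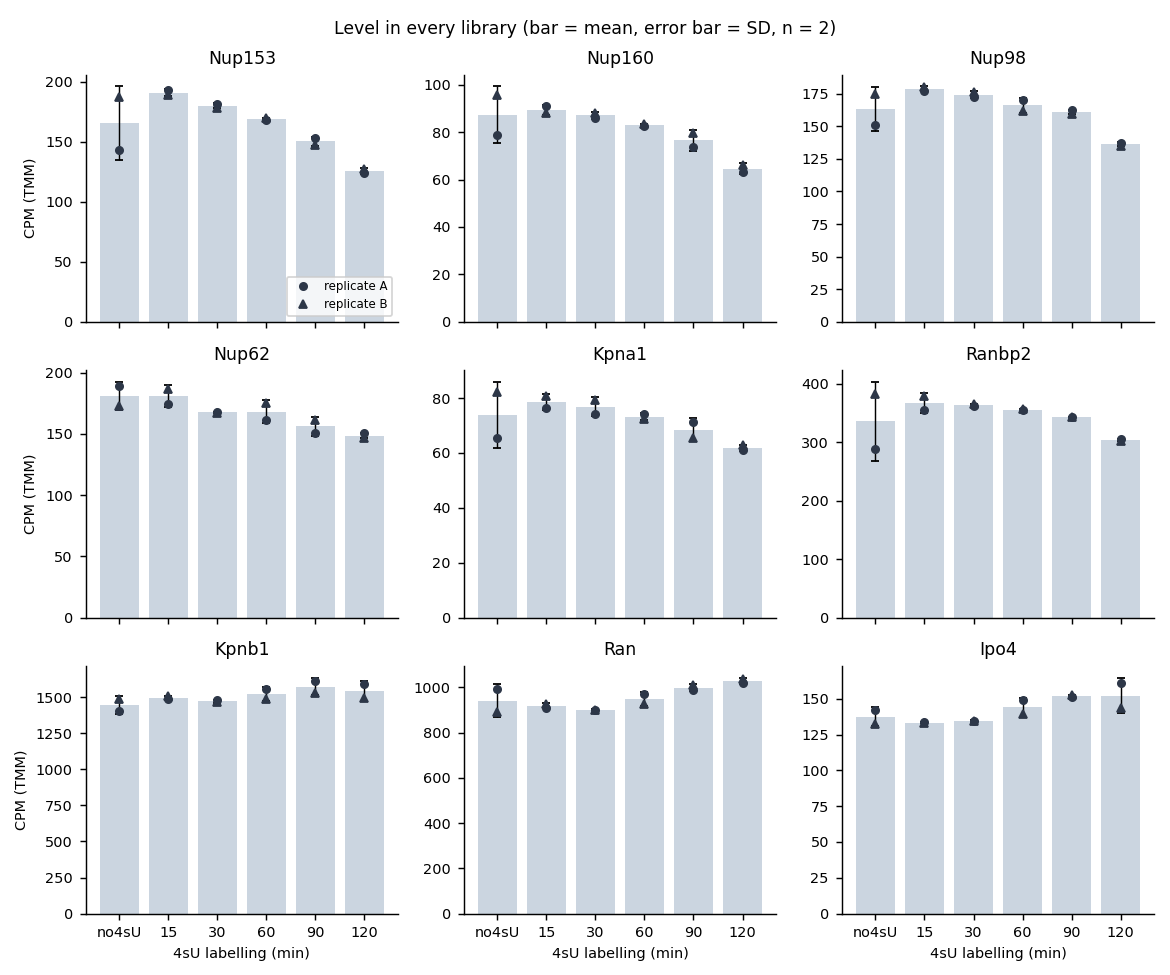
CPM scaled by TMM (vertical axis, from 0) without 4sU and after 15 to 120 min of labelling (horizontal axis) for 9 genes; bars are means, error bars SD of 2 libraries, circles replicate A and triangles replicate B. Nup153, Nup160, Nup98, Nup62, Kpna1 and Ranbp2 are lower at 120 min than at 15 min in both replicates, Ran and Ipo4 are higher, and the no4sU replicates of Nup153, Ranbp2, Kpna1 and Nup160 lie apart.

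Of the importin alphas, the adaptors that read the nuclear localisation signal, Kpna1 and Kpna2 were lower and the other 3 tested were not called. Kpna1 had 76.5 and 80.6 CPM at 15 min against 61.1 and 62.7 after 120, a change of −0.34 ± 0.0594 (edgeR adjusted p = 2.71e-05). Kpna2 had 353 and 362 CPM at 15 min against 307 and 323 after 120, a change of −0.18 ± 0.0379 (edgeR adjusted p = 0.000349). In both, the 120 min libraries lay below the 15 min libraries.

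In the importin beta family, 3 of 11 genes were lower (Ipo7, Ipo13 and Tnpo1), 2 were higher and 6 were not called. Ipo4, a receptor for histones and ribosomal proteins, had 134 and 133 CPM at 15 min against 161 and 144 after 120 (0.19 ± 0.0493, edgeR adjusted p = 0.00338), and without 120 min replicate A its edgeR adjusted p was 0.149. Ipo9, a histone importer, had 279 and 264 CPM at 15 min against 304 and 287 after 120 (0.12 ± 0.0397, edgeR adjusted p = 0.0162). Its call was lost when 15 min replicate B or 120 min replicate A was left out. It was also lost by size alone (0.06, edgeR adjusted p = 0.223), with DESeq2 (adjusted p = 0.0542) and in the edgeR fit of all 12 libraries (adjusted p = 0.119). Tnpo1, transportin, had 340 and 328 CPM at 15 min against 313 and 308 after 120 (−0.11 ± 0.0372, edgeR adjusted p = 0.027). It lost the call without 15 min replicate A or without either 120 min library. The call was also lost with DESeq2 (adjusted p = 0.0552) and in the edgeR fit of all 12 libraries (adjusted p = 0.359). These 3 changes are small beside those of the central channel. The Ipo13 call was lost without 15 min replicate B, without 120 min replicate B, with DESeq2 and in the edgeR fit of all 12 libraries.

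Kpnb1 had 1488 and 1507 CPM at 15 min against 1591 and 1493 after 120, which overlap (0.04, edgeR adjusted p = 0.356). Its value was −0.01 when libraries were scaled by size alone. Ipo5, an importer of ribosomal proteins and histones, had 585 and 598 CPM at 15 min against 615 and 585 after 120 (0.02, edgeR adjusted p = 0.691), and Ipo11 had 70.2 and 70.3 CPM at 15 min against 68.0 and 70.3 after 120 (−0.02, edgeR adjusted p = 0.827).

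Among exportins, Xpo1, Xpo4 and Xpo5 were lower and Xpo6, Xpo7 and Xpot were not called. Xpo1 had 319 and 325 CPM at 15 min, then 339 and 339 after 60 min, and 287 and 299.9 after 120 (−0.13 ± 0.0426 at 120 against 15 min, edgeR adjusted p = 0.0143). In the edgeR fit of all 12 libraries Xpo1 was not called (adjusted p = 0.181). Its call was also lost without 15 min replicate B or without 120 min replicate A. Xpo4 and Xpo5, the latter the exporter of microRNA precursors, kept their calls with each of these libraries left out.

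Ran had 910.2 and 926 CPM at 15 min, then 969 and 925 after 60 min, 989 and 1010.1 after 90, and 1017 and 1037 after 120. Both 120 min libraries lay above all earlier ones, with a change of 0.16 ± 0.0329 (edgeR adjusted p = 0.000193). Rangap1 had 252 and 248 CPM at 15 min against 278 and 254 after 120 (0.09, edgeR adjusted p = 0.109), and passed without 120 min replicate B (0.15, edgeR adjusted p = 0.0259). Neither part of the mRNA export receptor was called: Nxf1 had 223 and 207 CPM at 15 min against 216 and 218 after 120 (0.02, edgeR adjusted p = 0.815), with −0.04 under scaling by size alone, and Nxt1 had 45.1 and 48.3 CPM at 15 min against 41.0 and 44.4 after 120 (−0.12, edgeR adjusted p = 0.242).

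At shorter labelling few genes passed. At 30 against 15 min none of the 49 was called by edgeR or DESeq2, and no gene of the table was called. In edgeR, 3 of the 49 had an unadjusted p below 0.05, beside 462 of all 11526 genes. At 60 against 15 min only Nup153 was called, and lower (−0.18 ± 0.0424, edgeR adjusted p = 0.022), beside 0.894% of all genes, and it was not called when any of the 4 libraries was left out. At 90 against 15 min, 9 of the 49 genes (18.4%) passed, beside 9.33% of all genes. Of the 49, 7 (14.3%) were lower, beside 6.09%, namely Ipo7, Kpna1, Nup153, Nup160, Nup50, Nup62 and Nup98. Higher were 2 (4.08%), beside 3.24%, namely Ipo4 and Ran. DESeq2 gave 4 calls, beside 4.1% of all genes, and the fit of all 12 libraries gave 1, beside 1.07%. Leaving out a library gave fewer calls, both among the 49 genes and over all genes. Scaled by library size alone, 11 were lower and none higher, beside 965 lower and 128 higher of all genes in place of 702 and 373. All 9 were called again at 120 min in the same direction, in a comparison that shares the 15 min libraries.

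Against the unlabelled libraries, 9 of 49 genes (18.4%) passed at 120 min, beside 14.2% of all 11564 genes tested. Lower were 8 (16.3%, all genes 8.78%), namely Kpna1, Kpna2, Nup153, Nup160, Nup50, Nup54, Nup62 and Nup98. Only Ipo9 was higher (2.04%, all genes 5.43%). The median log2 fold change was −0.04 over the 49 genes and 0.01 over all genes. Scaled by library size alone, 15 were lower and none higher, beside 1684 lower and 203 higher of all genes in place of 1015 and 628. The count rests on the no4sU libraries: without no4sU replicate A, 15 were lower and 5 higher, beside 1855 and 1689 of all genes, and without no4sU replicate B, 11 were lower and 9 higher, beside 865 and 1037 of all genes. Leaving out either 120 min library gave fewer calls, both among the 49 genes and over all genes. At 15, 30, 60 and 90 min against no4sU, edgeR called none of the 49 genes, beside 0, 0, 2 and 161 of all genes. At an unadjusted p below 0.05 in edgeR were 2, 1, 1 and 9 of the 49, beside 618, 670, 895 and 1869 of all 11564.

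Single genes show how far apart the unlabelled libraries were. Nup153 had 144 CPM in no4sU replicate A and 187 in B, so its change at 120 min was −0.40 ± 0.0817 with both (edgeR adjusted p = 0.00318), −0.57 without A and −0.19 without B. Nup160 had 78.8 and 95.8 CPM there, and its change was −0.44 ± 0.0789 (edgeR adjusted p = 0.00132), −0.56 without A and −0.28 without B. Nup62, at 189 and 173 CPM, changed by −0.28 ± 0.0628 (edgeR adjusted p = 0.00599), by −0.22 without A and by −0.35 without B. These 3 genes were below both unlabelled libraries in both 120 min libraries and passed with either unlabelled library left out. Without 120 min replicate A the edgeR adjusted p was 0.0569 for Nup153 and 0.0517 for Nup62, without 120 min replicate B it was 0.0733 for Nup62, and none of the 3 passed in a fit of the 4 libraries alone (0.0558 to 0.107).

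For Ranbp2, Tpr, Tnpo1 and Xpo1 the unlabelled libraries decided the sign. Ranbp2 had 288 and 383 CPM in no4sU A and B and changed by −0.15 with both (edgeR adjusted p = 0.242), by −0.33 without A and by 0.08 without B. Tpr had 324 and 414 CPM, and its change of 0.04 (edgeR adjusted p = 0.754) became −0.12 without A and 0.23 without B. No direction against no4sU can be given for these genes.

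Multiplying each CPM by the NTR splits it into a new part and a pre-existing part. For Nup62 the pre-existing part was 173.6 ± 11.4 CPM (SD, n = 2) at 15 min, then 85.9 ± 6.29 after 60 min and 7.96 ± 4.18 after 120, while the new part was 7.08 ± 2.59, 82.3 ± 3.38 and 141 ± 1.76 CPM. The pre-existing part at 120 min was 4.59% of that at 15 min for Nup62, 10.3% for Nup153, 17.1% for Nup50 and 22.6% for Nxt1. At the other end it was 95.3% for Ipo4, 93.3% for Ran, 89.8% for Ipo9 and 86.0% for Ipo11.

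**Figure D4:**
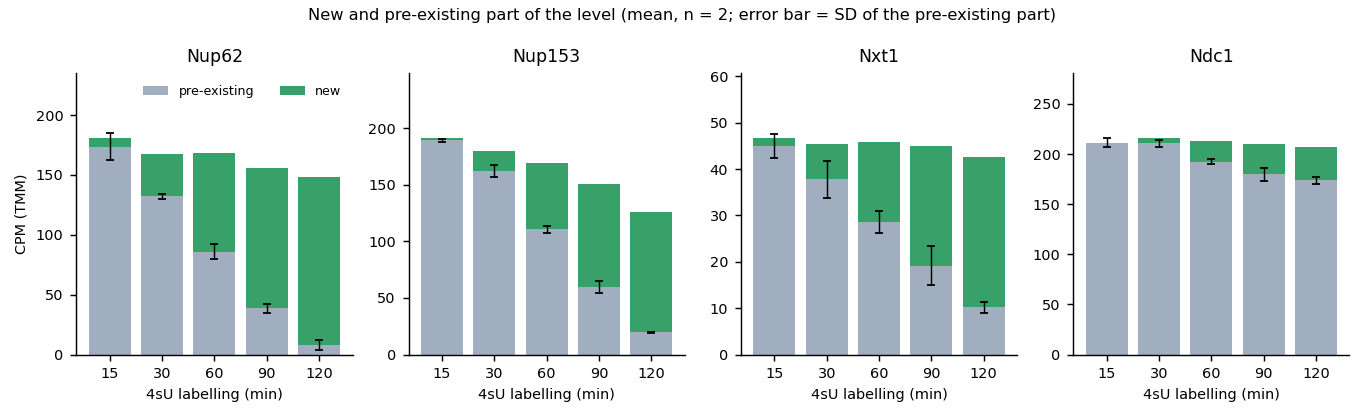
Pre-existing (grey) and new (green) part of the CPM (vertical axis, from 0) after 15 to 120 min of labelling (horizontal axis) for Nup62, Nup153, Nxt1 and Ndc1; bars are means of 2 libraries and error bars the SD of the pre-existing part. The pre-existing part of Nup62 is 7.96 CPM at 120 min, and that of Ndc1 is still 174 CPM.

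For Nup153 the pre-existing part went from 189 ± 1.21 to 19.5 ± 0.74 CPM between 15 and 120 min, and the new part from 1.97 ± 1.45 to 106 ± 1.51 CPM, which left the sum lower. For Nxt1 the same parts were 45.0 ± 2.63 and 10.2 ± 1.23 CPM, and 1.64 ± 0.383 and 32.5 ± 3.64 CPM. For Ran, the pre-existing part was 909.8 ± 12.7 CPM at 15 min and 849 ± 13.5 at 120 min, with a new part of 178 ± 0.719 CPM added. No test was made of these parts, since they combine a count with a model estimate.

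Genes with a higher NTR at 120 min had a lower log2 fold change at 120 against 15 min. Over the 48 genes the Spearman rho was −0.73, and over all 9065 genes it was −0.76, so the relation was of the same size in the whole table. Both measures come from the same 120 min libraries. T content had a rho of −0.02 with the NTR and −0.12 with the fold change over the 48 genes, and of 0.05 and −0.25 over the 9056 genes of the table with a known sequence. The T share of the 48 transcripts ran from 20.2% for Tpr to 32.2% for Tnpo1, with a median of 26.2% beside 24.4% over all genes. Their median gene length was 5060 bases beside 3596, and over all genes length had a rho of −0.38 with the fold change, and over the 48 genes one of −0.08. The part of length or T content in the fold changes was not tested.

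**Figure D5:**
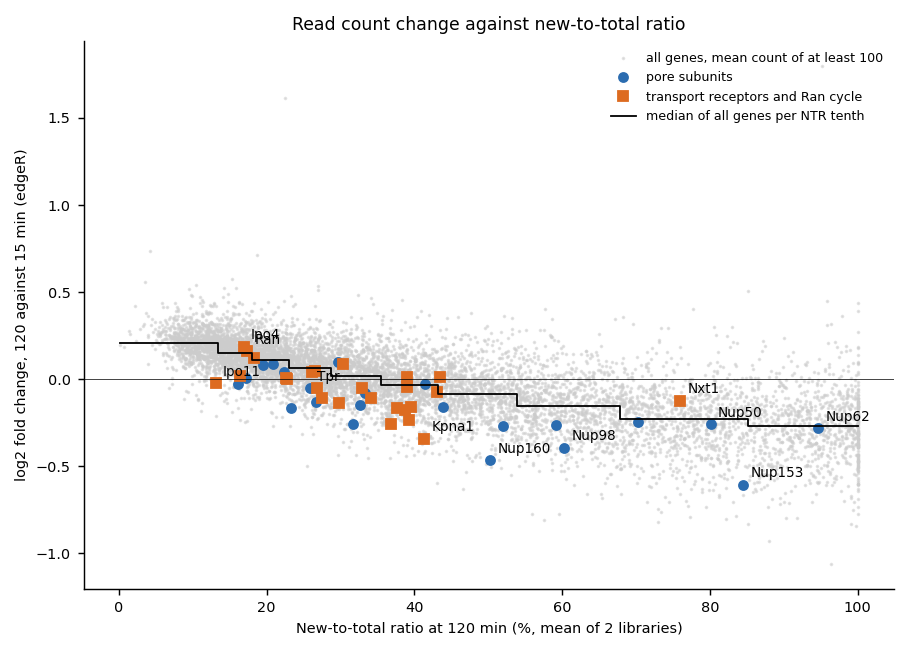
log2 fold change in read count at 120 against 15 min (vertical axis, edgeR) against the NTR at 120 min in percent (horizontal axis, mean of 2 libraries) for the 9065 genes that reached that mean count (grey), pore subunits (blue circles) and transport receptors with the Ran cycle (orange squares); the black steps are medians of all genes in 10 equal groups by NTR. Of the 48 genes, 39 lie below the median of their group, Nup153 and Nup160 far below it.

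When all genes were divided by NTR into 10 groups of equal size, from group 1 with the lowest NTR to group 10, 39 of the 48 pore and receptor genes had a log2 fold change below the median of their own group. In group 6, with an NTR between 35.4% and 43.2%, 6 of 10 members were called lower, beside 14.9% of all genes there, with medians of −0.16 and −0.03. Nup160 lay in group 7, whose median over all genes was −0.09, and Nup153 in group 9, whose median was −0.23. Nup50, also in group 9, had −0.26, and Nup62 in group 10 had −0.28 beside a median of −0.27. Nup54 and Nup98 lay in group 8, with a median of −0.33 beside −0.15 over all genes there. In groups 8, 9 and 10, 39.7%, 55.8% and 59.4% of all genes were called lower. In group 1, 68.0% of all genes were called higher, with a median of 0.21, and Ipo11, the 1 member found there, had −0.02. In group 2, with Ipo4, Ipo5, Ndc1, Nup205 and Ran, the medians were 0.02 over these 5 and 0.15 over all genes, and Ipo4 and Ran were called higher. These are descriptions of genes that share the same libraries, and no test was made of the members as a set.

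Other genes of nuclear traffic, outside the symbol rule, were counted from 4 lists that hold 49 genes, all tested. At 120 against 15 min, 11 of the 49 were lower and 8 of the 49 higher, beside 16.9% and 15.2% of all genes. The median log2 fold change was 0.02. Against no4sU 7 of the 49 were lower and 1 of the 49 higher, beside 8.78% and 5.43%. Of 13 further pore-associated genes 3 were lower and 1 higher, of 11 Ran cycle genes and receptors 4 and 1, of 13 mRNA export adaptors 1 and 1, and of 12 envelope and lamina genes 3 and 5. The lowest were Lemd3, an inner nuclear membrane protein (−0.93 ± 0.096, edgeR adjusted p = 3.45e-09), Nmd3, the export adaptor of the large ribosomal subunit (−0.55 ± 0.0557, edgeR adjusted p = 1.96e-09), and Snupn, the import adaptor of spliceosomal RNPs (−0.49 ± 0.173, edgeR adjusted p = 0.0277). Lemd3 had 33.0 and 33.6 CPM at 15 min against 17.7 and 17.4 after 120, Nmd3 126 and 131 against 81.5 and 92.7, and Snupn 6.77 and 7.95 against 5.67 and 4.87, each without overlap. The highest were Thoc6 of the mRNA export complex THO (0.28), Sec13, shared by the Y complex and the COPII coat (0.20), and Syne1, which ties the envelope to the cytoskeleton (0.19).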

How the data were processed

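SLAM-seq RNA of 12 NIH-3T3 libraries was used, grouped by their titles. The authors deposited estimated counts per gene and library, not scaled between libraries; 20.4% were not whole (tolerance 1e-06), so all were rounded before testing. The deposited NTR is a fraction, of which the posterior maximum was used. The deposited alpha and beta columns, each a score without fixed range, were not used; the gene length is in bases. The submitters' processing notes name cutadapt, Bowtie2 2.3.0 and STAR 2.7.10b without their roles; counter, build, annotation and use of strand: not given in the sources used here. A read with many conversions may fail to align, which counts cannot show; its part in the results was not tested.

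The count test was that of edgeR 4.0.16 under R 4.3.3 (filterByExpr, TMM factors 0.970 to 1.02, quasi-likelihood, Benjamini-Hochberg over all genes, threshold 0.05), without covariates: in the 10 labelled libraries against 15 min (biological coefficient of variation 2.54%) and in all 12 against no4sU (4.44%). SE is the log2 fold change divided by the square root of F. DESeq2 1.42.0 was the other tool, beside the alternatives in the closing section. CPM use TMM library sizes. The half-life used NTR values between 0.01 and 0.99. Positions, transcripts (longest coding sequence) and shared words come from GENCODE M21.

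The members, role groups, lists and tests were chosen with earlier results of these data known. Named were the 6 highest and 6 lowest fold changes past the threshold at 120 against 15 min, the 4 highest and 4 lowest NTR values at 120 min, and Kpnb1, Ran, Rangap1, Xpo1, Nxf1, Nup98, Nup153, Nup62, Ranbp2, Tpr and Kpna2, with others where a count of 5 or fewer or an order needed the name; of the related lists, the 3 highest and 3 lowest past the threshold. Nupl1, and Pom121's NTR, were added after their values were seen. Library totals limit low genes; SD describe 2 libraries.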

Additional observations from a re-analysis of the deposited data

How the results depend on the processing

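Of the 22 genes called at 120 against 15 min, 14 kept the call under all 11 alternatives and all 22 kept their sign, and the count stayed between 15 and 28. Scaling by library size alone gave the 28 (26 lower, 2 higher), moving the median of all genes to −0.05, and leaving out a library gave 16 to 18. At 60 against 15 min, DESeq2, the fit of all 12 libraries and leaving out a library (0 to 0) each gave 0 calls. At 90 against 15 min, DESeq2 gave 4, the fit of all 12 libraries 1, and leaving out a library 3 to 6. At 120 min against no4sU, size alone gave 15, DESeq2 5, the fit of the 4 libraries 0, and leaving out a library 1 to 20; of the 9 genes called, none kept the call under all 10 alternatives and all 9 kept their sign. Deviations of same-letter libraries from their group means correlated between −0.0726 and 0.0896 over all genes tested. Counting noise pulls such values toward 0, so they cannot show whether the letters mark a shared batch. With the letter as a block the counts were 1 at 60 min, 12 at 90 min, 23 at 120 min and 9 against no4sU. Over all genes that block gave 163, 1321 and 3947 calls at 60, 90 and 120 against 15 min, in place of 103, 1075 and 3700. Without genes sharing over 10% of their words, an alternative added after seeing the data, 17 of 42 were called.

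With a mean count of at least 1000 the median NTR was 29.9% and the half-life 234 min. Over the 48 genes the half-life was 481 min from 30 min, 262 min from 60 min and 249 min from 90 min. Signs are given for the named genes; other uncalled members with values near 0, such as Nup43 and Nup205, also changed sign. By size alone, signs turned at 120 against 15 min for Ipo5 (−0.037), Kpnb1 (−0.015) and Nxf1 (−0.042), and against no4sU for Ndc1 (−0.056), Tnpo1 (−0.040) and Tpr (−0.026). Leaving out a library turned the sign at 120 against 15 min for Ipo11 (−0.051 to 0.0059), Ipo5 (−0.012 to 0.053) and Nxf1 (−0.038 to 0.065). Against no4sU it did so for Ipo11 (−0.13 to 0.071), Ndc1 (−0.039 to 0.066), Nxt1 (−0.37 to 0.0023), Ranbp2 (−0.33 to 0.078), Tnpo1 (−0.15 to 0.23), Tpr (−0.12 to 0.23) and Xpo1 (−0.21 to 0.047). The cause was not tested. Each group has 2 libraries and counting error is in the SD; low genes such as Nup210l carry little information.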
